A study of Mus musculus with 43 samples.

Results

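The mitochondrial respiratory chain was described here through the nuclear genes that encode the structural subunits of complexes I to IV. Genes were taken by name, as those whose symbol starts with Ndufa, Ndufb, Ndufc, Ndufs, Ndufv, Uqcr, Cox4i, Cox5, Cox6, Cox7 or Cox8, or is Sdha, Sdhb, Sdhc or Sdhd, leaving out assembly factors and pseudogenes named as such. Of 37991 genes in the table, 72 had such a name, and 66 of these had at least 10 counts in at least 5 libraries. They comprise 38 genes of complex I, 4 of complex II, 8 of complex III and 16 of complex IV, with Ndufa4 placed in complex IV. The 6 genes that did not reach the count rule were Ndufb4c, Ndufa4l2, Cox4i2, Cox7b2, Cox8b and Cox8c. Among them Cox8b and Cox8c had no count in any library and the highest count was 15, for Cox4i2, the form of subunit 4 known from lung smooth muscle and hypoxic cells. Ndufa11b, Ndufs6b and Cox6c2 are annotated as processed pseudogenes, so their reads cannot be told apart with certainty from those of Ndufa11, Ndufs6 and Cox6c.

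Complex I takes electrons from NADH and complex II takes them from succinate, and both pass them to coenzyme Q. Complex III hands them on to cytochrome c, and complex IV passes them to oxygen. A few core subunits of each complex carry the redox centres, while many small accessory subunits surround them and serve assembly and stability. In the lung, resident alveolar macrophages are known for a strong reliance on oxidative metabolism, and an excess of oxygen is known to raise the leakage of superoxide from the chain.

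RNA came from mononuclear phagocytes that had been sorted from lung tissue of C57BL/6 newborns, which entered the study within 6 h of birth. The pups of 3 litters (93, 100 and 108) were mixed and assigned at random to hyperoxia (an inspired oxygen fraction of 0.9) or to normoxia as the control, for 1.5 days in either case. Each condition gave dendritic cells (DC, sorted as MHCIIhi CD11chi), alveolar macrophages (AM, SiglecFhi CD11chi), Ly6Chi cells (Ly6Chi CD11clo) and Ly6Clo cells (Ly6Clo CD11chi), the last 2 labelled monocytes/macrophages. There were 6 normoxic libraries each of DC, AM and Ly6Chi, 5 of Ly6Clo, and 5 hyperoxic libraries of every population, 43 in all. No label says which pup or pups a library came from, so p-values measure the spread between these libraries, and populations may share pups, of which the population comparisons take no account.

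Library totals ranged from 551960 to 2403861 counts, with a median of 1279070 in AM normoxia and 849561 in AM hyperoxia against 1812550 and 1792559 in DC, 2033220 and 1875018 in Ly6Chi, and 1398948 and 1258218 in Ly6Clo. The marker lists of AM, DC and Ly6Chi were called higher in full in their own population in both conditions. That of Ly6Clo was less distinct, with 6 of 8 called higher in Ly6Clo in normoxia (median log2 difference 1.46) and 3 of 8 in hyperoxia (0.72), where it was also higher in DC (4 of 8, 1.09) and Ly6Chi (4 of 8, 0.90). Of the 11 AM markers, 8 in normoxia and 9 in hyperoxia were higher in Ly6Clo too. The 8 markers of Ly6Clo summed to 1379 to 1980 CPM in DC normoxia and 1190 to 2296 in Ly6Clo normoxia. The summed level of 11 alveolar macrophage markers was 3410 to 4230 CPM (counts scaled to a library of 1000000, with TMM scaling of library sizes) in AM normoxia, 2189 to 3071 in Ly6Clo normoxia and at most 886 in the other normoxic libraries. The dendritic cell list summed to 4988 to 7211 CPM in DC normoxia and to at most 1268 elsewhere in normoxia. Epithelial marker RNA was present in all 8 groups, at medians from 167 CPM in Ly6Chi hyperoxia to 1652 CPM in AM normoxia, and its part in the results below was not tested. Neutrophil markers were higher in Ly6Chi (7 of 8 in both conditions, medians 3.03 and 4.22). B cell markers were higher in DC (4 of 4, medians 2.79 and 3.61) and in hyperoxic Ly6Chi (4 of 4, median 2.27). In AM 4 of 4 B cell markers were lower in both conditions. Of all genes, 24.2% and 20.4% were called higher in Ly6Chi, 18.9% and 16.6% higher in DC, and 26.9% and 21.8% lower in AM. Of 6 endothelial markers, 4 were higher in normoxic Ly6Chi (median 0.90) and 4 lower in normoxic DC (median −1.15). In AM 2 of the 6 were higher in normoxia (median 0.79) and 1 in hyperoxia (median 0.86), with 0 lower in either. There 23.6% and 22.2% of all genes were called higher. Their part in the population differences was not tested either.

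The 66 genes held 0.922% to 2.22% of all counts. In normoxia the median share was 1.597% in AM (1.44% to 1.94%, n = 6), 1.27% in Ly6Clo (1.18% to 1.43%, n = 5), 1.09% in DC (0.922% to 1.67%, n = 6) and 1.05% in Ly6Chi (0.950% to 1.41%, n = 6). All 6 normoxic AM libraries therefore lay above all normoxic Ly6Clo and Ly6Chi libraries, while DC overlapped AM through its replicate 3. In hyperoxia the medians were 1.79% in AM (1.38% to 2.10%), 1.29% in Ly6Clo (1.17% to 2.22%), 1.12% in DC (1.01% to 1.54%) and 1.12% in Ly6Chi (0.983% to 2.03%), with n = 5 each. Replicate 3, which comes from litter 100, had the highest share in all 8 groups, and in hyperoxia it put the highest Ly6Chi and Ly6Clo shares inside or above the AM range. Normoxia has a second library of litter 100 in each population, replicate 4.

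**Figure D1:**
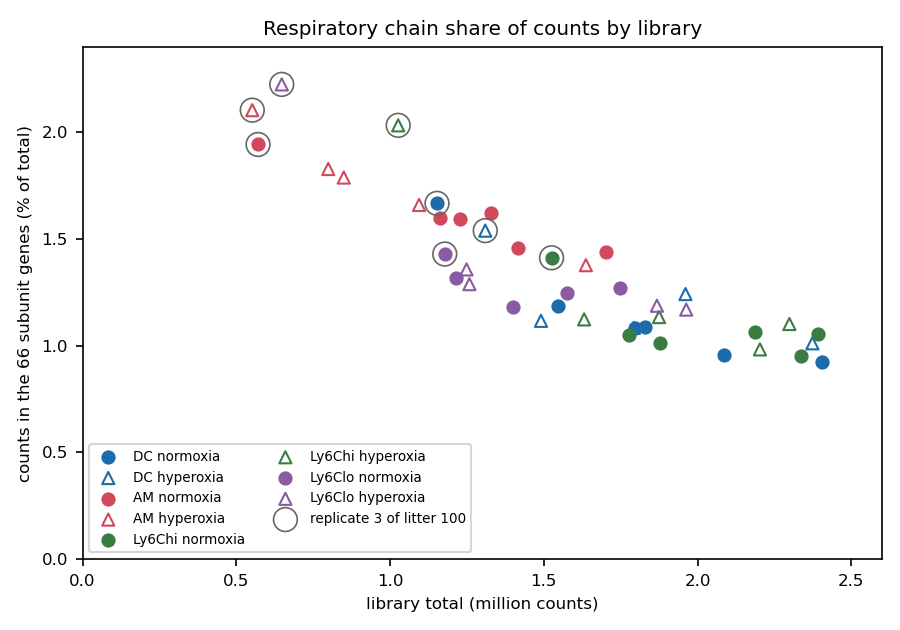
Share of counts in the 66 subunit genes (y axis, % of the library total) against the library total (x axis, in units of 1000000 counts) for 43 libraries. Colours give the population, filled circles normoxia, open triangles hyperoxia and grey rings the 8 replicate 3 libraries of litter 100. Shares run from 2.22% down to 0.922% as totals grow. Between 1000000 and 1900000 counts the normoxic AM libraries (1.44% to 1.62%) lie above the normoxic Ly6Clo and Ly6Chi libraries.

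The 5 libraries under 1000000 counts, 4 of AM and 1 of Ly6Clo, had shares of 1.79% to 2.22%, and the deepest library had 0.922%. Between 1000000 and 1900000 counts, 5 normoxic AM libraries had shares of 1.44% to 1.62%, against 1.18% to 1.43% in 5 Ly6Clo, 1.01% to 1.41% in 3 Ly6Chi and 1.08% to 1.67% in 4 DC libraries. In normoxia at like depth the AM shares lay above those of Ly6Clo, narrowly, and of Ly6Chi, and they overlapped with DC replicate 3 alone. In hyperoxia 2 AM libraries of that range had 1.38% to 1.66%. There 3 DC libraries had 1.08% to 1.54%, 3 Ly6Chi libraries 1.12% to 2.03% and 3 Ly6Clo libraries 1.19% to 1.36%.

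How a subunit's count followed depth differed widely between genes. Within groups, the slope of log2 count on log2 library total was computed for each gene over the 43 libraries, where a slope of 1 means a count in proportion to the total. Its median was 1.08 over 12656 genes with the same minimum counts, and 0.21 over the 66 subunit genes, of which 44 (66.7%) had a slope under 0.5 against 16.6% of the 12656 genes. Counts of Cox7a2, the widely expressed form of subunit 7a, ranged from 233 to 437 while the totals spanned 4.36-fold, and its slope was 0.07. Uqcrq and Uqcr10, small subunits of complex III, had slopes of 0.03 and 0.00. Other subunits had slopes above 1. Sdhc, a membrane anchor of complex II, had a slope of 1.88 with counts from 51 to 519, Ndufv1, the NADH-binding flavoprotein, 1.84, and Uqcrc1, a core protein of complex III, 1.68. Complex II had a median slope of 1.27, complex I 0.24, complex IV 0.13 and complex III 0.07. Without the 8 replicate 3 libraries of litter 100 the median of the members was 0.63 and that of the 12656 genes 1.12. The slopes of single genes then lay closer together. Sdhc had 1.03, Ndufv1 1.49 and Uqcrc1 0.93, and Cox7a2 had 0.48, Uqcrq 0.58 and Uqcr10 0.54. The medians were then 0.86 in complex II, 0.66 in complex I, 0.58 in complex IV and 0.59 in complex III. Slopes are a description, with no test. Whether reads at one position were collapsed before counting is not given in the sources used here. If they were, counts would not be in proportion to RNA, and CPM of genes with flat slopes would be raised in shallow libraries, of which AM has the most. Its part in the results was not tested. A correction for a limit of 2 counts per exonic base left 53 members called in AM normoxia and 54 in AM hyperoxia. The highest count per exonic base of a member was 0.87, and 12 members passed 0.5. The correction therefore changed most counts little, and it cannot decide the question.

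**Figure D2:**
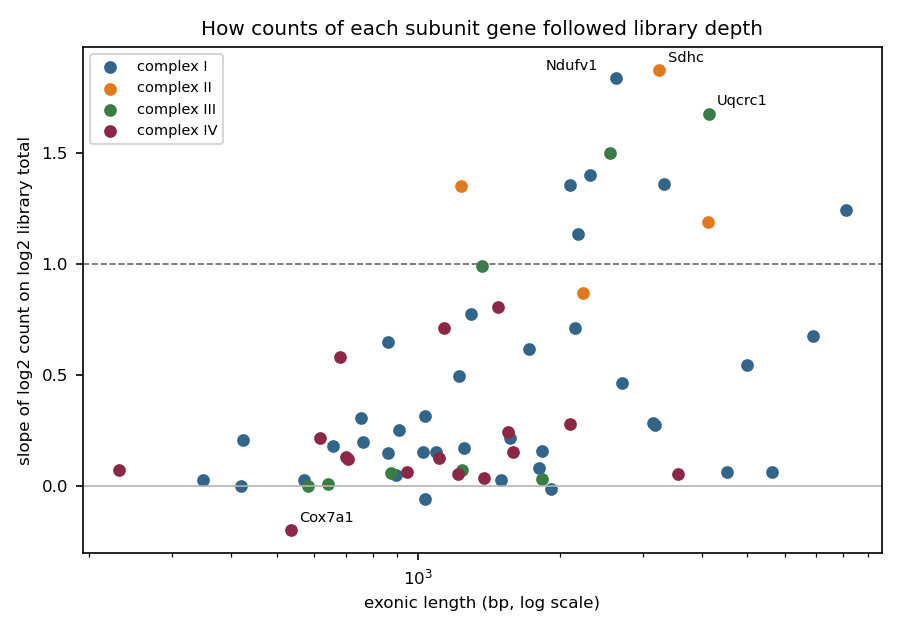
Slope of log2 count on log2 library total within groups (y axis) against exonic length in the GRCm38 annotation (x axis, bp, log scale) for the 66 subunit genes, coloured by complex. The dashed line marks a slope of 1, in proportion to the total. Sdhc (1.88), Ndufv1 (1.84) and Uqcrc1 (1.68) lie at the top, and Cox7a1 (−0.20) lies lowest.

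Levels per length placed small accessory subunits highest. In CPM per kb of exon, averaged over the 8 groups, Ndufa1 (481) and Ndufa2 (429) led complex I, Uqcr10 (397) led complex III, and Cox6a1 (434) and Cox6b1 (400) led complex IV. Sdhd, an anchor subunit, led complex II at 389, and Sdhc was lowest there at 56.4. The lowest values within complexes I, III and IV were 6.88 for Ndufab1, the mitochondrial acyl carrier protein, 113 for Uqcrc2, and 16.9 for Cox7c. Exonic lengths count every annotated exon, so genes with long annotated ends, such as Ndufab1, are set low. Most members kept a narrow range: the ratio of the highest to the lowest group mean had a median of 1.98 and was lowest for Sdha (1.15), the flavoprotein of complex II. It was highest for Cox6a2 (17.1) and Cox7a1 (10.8), which are known as heart and skeletal muscle forms.

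Comparing each population with the mean of the other 3 in the same oxygen condition asks where the subunits were high. AM had the highest mean level of 55 of the 66 members in normoxia and of 56 in hyperoxia. In normoxia 53 members were higher in AM and none lower (edgeR quasi-likelihood test, adjusted p under 0.05 over 11979 genes), where 50.6% of all genes were called and 23.6% were called higher. The median log2 fold change of the members was 0.56, against −0.04 for all genes. In hyperoxia 52 were higher and Ndufv1 was lower, with 44% of 11504 genes called and 22.2% called higher, and the member median was 0.70. The normoxic and hyperoxic libraries do not overlap, and 51 members were called higher in both. The share of all genes called higher in both was not counted, so this overlap is not shown to be particular to the members.

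**Figure D3:**
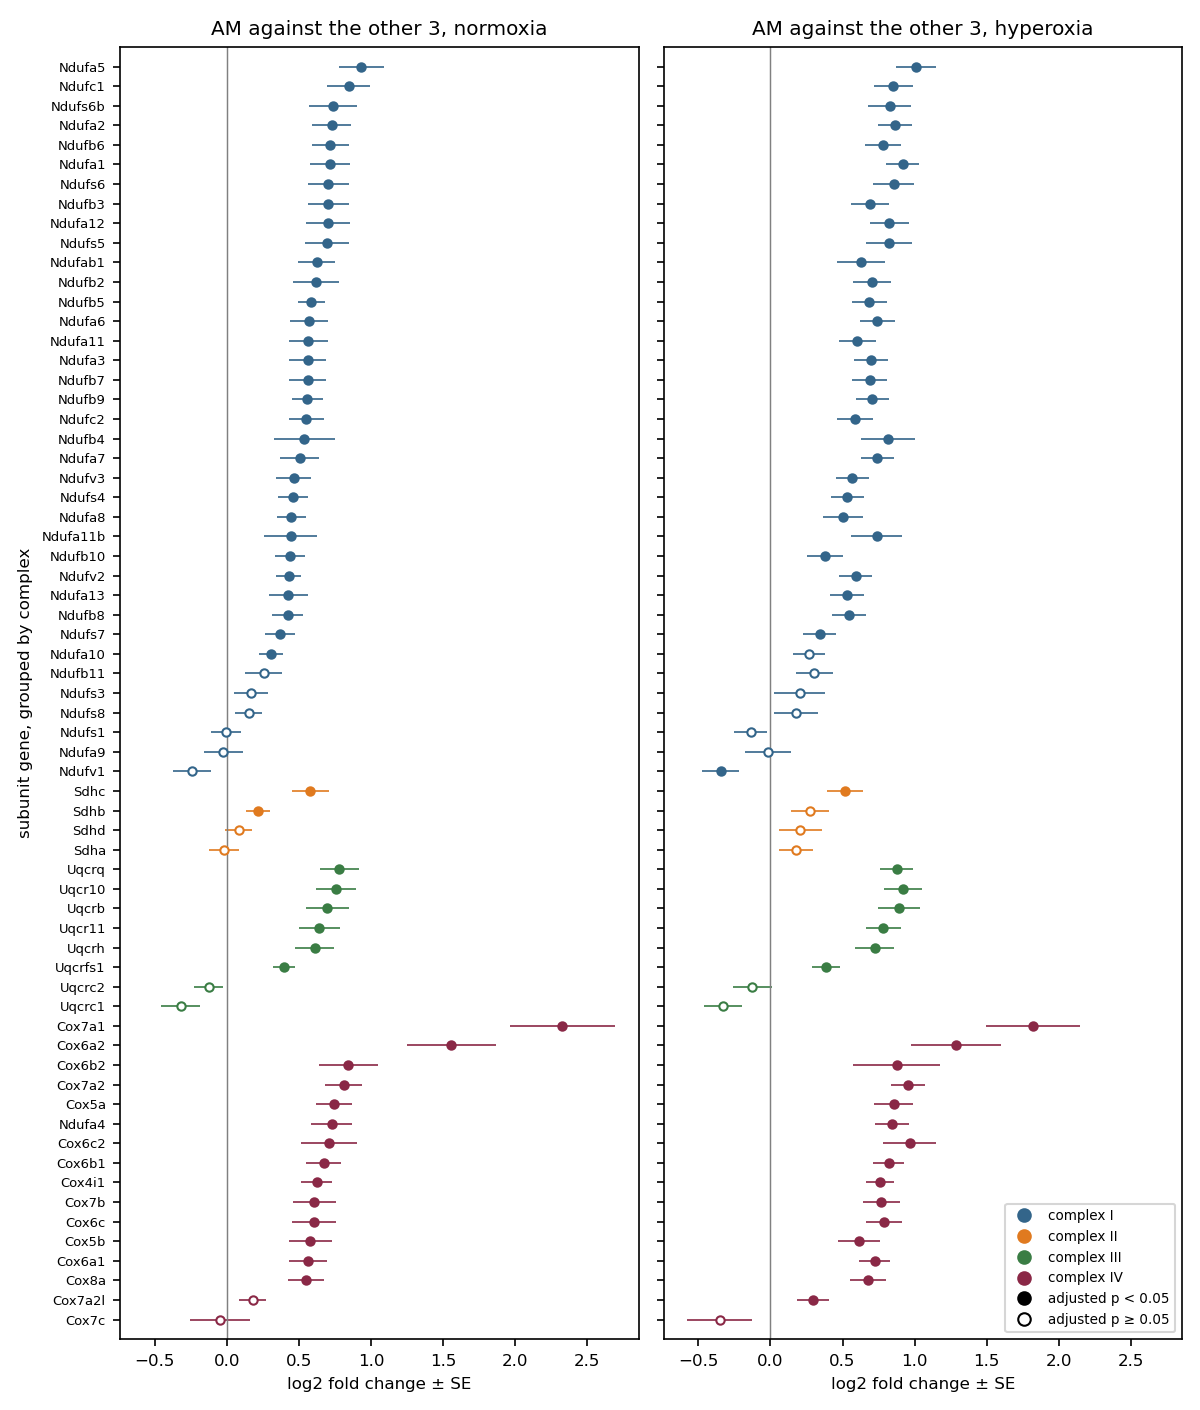
Log2 fold change of AM against the mean of DC, Ly6Chi and Ly6Clo (x axis, with its standard error) for the subunit genes (y axis, grouped by complex, with 1 gene left out), in normoxia (left) and hyperoxia (right). Filled points have an adjusted p under 0.05. Most members lie right of 0, with Cox7a1 (2.33 and 1.82) farthest out and Ndufv1, Uqcrc1 and Uqcrc2 left of 0 in both panels.

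The complexes differed in how many members were higher in AM. In complex I 31 of 38 were higher in normoxia (median 0.54) and 30 in hyperoxia (0.66), in complex III 6 of 8 in both (0.62 and 0.75), and in complex IV 14 and 15 of 16 (0.65 and 0.81). Complex II had 2 of 4 in normoxia and 1 of 4 in hyperoxia, with medians of 0.15 and 0.24. Core subunits of complex I, which hold the flavin and the iron-sulfur clusters, showed smaller differences than the others. In normoxia 2 of the 7 core subunits, Ndufv2 and Ndufs7, were higher (median 0.15), against 27 of 29 others (0.56). Ndufs1 (−0.01 ± 0.11, SE) and Ndufv1 (−0.24 ± 0.13) did not pass. In complex III the 5 small subunits Uqcrq, Uqcr10, Uqcrb, Uqcr11 and Uqcrh were higher, as was the Rieske iron-sulfur protein Uqcrfs1, and the core proteins Uqcrc1 (−0.32 ± 0.14, adjusted p 0.0519) and Uqcrc2 (−0.13 ± 0.10, adjusted p 0.302) did not pass. The difference between core and other subunits was not tested.

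Ndufa5, an accessory subunit next to the matrix arm, had the largest difference in complex I. Its CPM in normoxia ran from 142 to 326 in AM (median 179), 102 to 171 in Ly6Clo (median 125), 71.0 to 192 in DC (median 95.6) and 63.9 to 135 in Ly6Chi (median 74.2). Replicate 3 gave the highest value in each of these groups, and AM overlapped with Ly6Clo and DC. Its log2 difference was 0.93 ± 0.15 (SE, adjusted p 1.94e-05) in normoxia and 1.01 ± 0.14 (adjusted p 4.24e-06) in hyperoxia.

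Uqcrq ran from 262 to 577 CPM in AM normoxia (median 325), 213 to 318 in Ly6Clo (median 236), 143 to 335 in DC (median 181) and 140 to 244 in Ly6Chi (median 172). The difference was 0.78 ± 0.13 (adjusted p 2.89e-05) in normoxia and 0.88 ± 0.12 (adjusted p 2.89e-06) in hyperoxia. As for Ndufa5, the highest library of each group was replicate 3. Uqcr10, another small subunit, had 0.76 ± 0.14 (adjusted p 5.64e-05) in normoxia and the largest hyperoxic difference of complex III, 0.92 ± 0.13 (adjusted p 8.02e-06).

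Complex II had the smallest differences of the 4 complexes by its median. Sdhc ran from 103 to 290 CPM in AM normoxia (median 260), 87.6 to 230 in Ly6Clo (median 206), 100 to 214 in Ly6Chi (median 167) and 67.2 to 180 in DC (median 156), and here replicate 3 was the lowest library in each group. It was higher in AM by 0.58 ± 0.13 (adjusted p 6.79e-04) in normoxia and 0.52 ± 0.13 (adjusted p 0.00200) in hyperoxia. Sdhb, the iron-sulfur subunit, was higher in normoxia by 0.21 ± 0.08 (adjusted p 0.0359), a call lost without any 1 of 7 libraries, and its value in hyperoxia was 0.27 ± 0.13 (adjusted p 0.101). Sdha (−0.02 and 0.18) and Sdhd (0.08 and 0.21) did not pass in either condition. Sdhc was thus the subunit of complex II called in both conditions.

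No member had all AM libraries above all other libraries of the same condition, where 1.92% of all genes in normoxia and 0.756% in hyperoxia did. The calls rest on a fit with litter as a term, and many were lost in fits that took depth into account. AM had the lowest median library total in both conditions. Depth and population therefore cannot be fully told apart, and the cause of the lost calls was not tested. With the log2 library total as a covariate, 13 members stayed higher in AM in normoxia (median 0.17) and 1 in hyperoxia (median 0.14). All of these were among the calls above. As a share of the members these counts are 19.7% and 1.52%, below the 35.3% and 7.75% of all genes called in the same fits, so with this covariate the members were not called more often than other genes. The 13 were Ndufa5, Ndufa10, Ndufab1, Ndufb5, Ndufb6, Ndufc1, Ndufv2, Sdhc, Uqcrfs1, Cox5a, Cox6a2, Cox7a1 and Cox7a2, and the 1 was Sdhc. In libraries of 1000000 to 1900000 counts 32 members (48.5%, against 40.5% of all genes called) were higher in AM normoxia, all of them among the 53. In AM hyperoxia 1 was called (1.52% against 1.97%), where 2 AM libraries are left, both of litter 108. The only other hyperoxic library of litter 108 in that range is Ly6Clo replicate 5. With the litter term AM is tied to the other populations through it, so litter and population are largely confounded there. Without the litter term 51 members (77.3%, against 46.3% of all genes called) were called in normoxia and 17 (25.8% against 31.7%) in hyperoxia. Without litter 93 there were 44 (66.7% against 39.8%) and 24 (36.4% against 19.8%). Without the 8 replicate 3 libraries of litter 100 the counts were 58 (87.9% against 51.9%) and 58 (87.9% against 45.2%).

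The members' exonic length also moved with the AM difference. The 21 members under 1000 bp had a median of 0.70 in normoxia and the 21 of 2000 bp or more had 0.42, against 0.41 and −0.08 for all genes of these lengths. Across the 66 genes Spearman's rho between length and the AM difference was −0.48 in normoxia and −0.54 in hyperoxia, against −0.05 and 0.01 across all genes with a length. These are correlations across genes, which share libraries and are not independent replicates. The part of transcript length in the AM difference was not tested.

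DC and Ly6Chi held most of the lower calls, in comparisons that share their libraries with those of AM. In DC 14 members were lower in normoxia and 45 in hyperoxia, where 33.8% and 32.3% of all genes were called and 14.9% and 15.7% were called lower. Cox7c was the 1 member higher in DC normoxia, where 18.9% of genes were called higher. The medians were −0.25 and −0.48, and 10 members were called lower in both conditions. In Ly6Chi 33 were lower and 2 higher in normoxia, against 43.6% of genes called, 19.4% lower and 24.2% higher. In hyperoxia 21 were lower and 1 higher, against 37.2% called, 16.8% lower and 20.4% higher. All 21 were among the 33. For DC and Ly6Chi, too, the share of all genes called lower in both conditions was not counted. Among called members, the largest negative differences by complex were Ndufa12 (−0.76 ± 0.16), Uqcrb (−0.56 ± 0.16) and Cox6a2 (−2.71 ± 0.40) in normoxic Ly6Chi. In hyperoxic Ly6Chi they were Ndufa5 (−0.67 ± 0.15), Uqcr10 (−0.56 ± 0.14) and Cox6a2 (−2.18 ± 0.37). In DC they were Ndufb3 (−0.47 ± 0.15), Sdhc (−0.43 ± 0.14), Uqcrfs1 (−0.23 ± 0.08) and Cox6b2 (−0.69 ± 0.22) in normoxia, and Ndufa1 (−0.67 ± 0.12), Uqcrq (−0.60 ± 0.13) and Cox7a1 (−1.34 ± 0.38) in hyperoxia.

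The DC counts were unstable. In hyperoxia the 45 became 20 between 1000000 and 1900000 counts (30.3%, against 7.96% of all genes called). That fit, too, ties AM to the other populations through Ly6Clo hyperoxia replicate 5 alone. The 45 became 1 without litter 93 (1.52% against 12.3%) and 0 without the litter term (0% against 19.1%). In normoxia the count changed with single libraries. It was 15 in all, counting Cox7c as higher, 43 without DC normoxia replicate 3, 27 without AM normoxia replicate 4, and 8, 9, 7 and 5 without DC normoxia replicate 1, 4, 5 and 6. The Ly6Chi count in hyperoxia, 22 in all, was 10 without Ly6Chi hyperoxia replicate 1 or 2 and 12 without replicate 4. Shares of all genes called are not given for omissions of single libraries. Those counts therefore do not tell a change in the members from a change in all genes. The hyperoxic Ly6Chi count was 1 (1.52%) without the litter term or without litter 93, against 26.2% and 17.1% of all genes called. With library depth as a covariate 8 and 1 members were called in DC (12.1% and 1.52%, against 31.3% and 12.8% of all genes) and 4 and 2 in Ly6Chi (6.06% and 3.03%, against 29.8% and 19.3%).

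A few members ran the other way. Ndufv1 was higher in Ly6Chi by 0.48 ± 0.12 in normoxia (adjusted p 0.00269) and by 0.31 ± 0.12 in hyperoxia (adjusted p 0.0437), and lower in AM by 0.34 in hyperoxia (log2 −0.34 ± 0.13, adjusted p 0.0322). Its CPM in normoxia was 205 to 245 in Ly6Chi (median 230), 116 to 200 in DC (median 189), 66.2 to 231 in AM (median 160) and 125 to 228 in Ly6Clo (median 160). All 6 Ly6Chi values lay above every DC value, and replicate 3 was the lowest library of each of the 4 groups. Ndufv1's calls in hyperoxia were lost without any 1 of several libraries, 4 of them AM replicates 1 to 4 for the AM call. Cox7c, a small subunit at 12.4 to 30.5 CPM in DC and AM normoxia, was higher in DC normoxia by 0.56 ± 0.19 (adjusted p 0.0265), a call lost without DC normoxia replicate 1, 2 or 3.

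Complex IV contains paired isoforms, and the muscle forms set the populations furthest apart. Cox6a2 in normoxia was 28.9, 32.8, 27.3, 25.9 and 12.2 CPM in the 5 Ly6Clo libraries, 12.7 to 34.7 in AM (median 24.4), 3.69 to 21.9 in DC (median 8.65) and 0.471 to 4.53 in Ly6Chi (median 2.17). Each Ly6Clo and AM library was above all Ly6Chi libraries. In hyperoxia it was 25.3, 27.3, 61.8, 35.3 and 54.1 in Ly6Clo, 31.9, 35.4, 22.4, 13.7 and 23.2 in AM, 5.07, 4.67, 15.4, 8.16 and 9.37 in DC, and 1.12, 3.81, 5.17, 2.75 and 9.67 in Ly6Chi. In both conditions AM and Ly6Clo overlapped, and every library of theirs lay above every Ly6Chi library. Counts were low, 1 to 96 per library.

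Cox6a2 was the 1 member called in Ly6Clo, higher by 1.49 ± 0.32 in normoxia (adjusted p 0.00236) and 1.98 ± 0.29 in hyperoxia (adjusted p 5.76e-05), where 12% and 11.6% of genes were called, 8.51% and 7.42% higher and 3.51% and 4.19% lower. AM had 1.55 ± 0.31 (adjusted p 1.70e-04) and 1.29 ± 0.31 (adjusted p 0.00203). With depth as a covariate the Ly6Clo and Ly6Chi calls of Cox6a2 held in both conditions and that of AM in normoxia. Leaving out DC normoxia replicate 3 or Ly6Clo hyperoxia replicate 5 raised the Ly6Clo count from 1 to 2. The liver form Cox6a1, expressed in most tissues, was at 169 to 503 CPM in normoxia, and its AM difference was 0.56 ± 0.13 (adjusted p 9.60e-04).

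Cox7a1 separated AM from Ly6Clo more than Cox6a2 did. It was 9.22, 15.01, 9.91, 4.32 and 5.24 CPM in Ly6Clo normoxia, 10.4 to 32.0 in AM (median 26.2), 0.953 to 12.9 in DC (median 5.98) and 0.942 to 8.19 in Ly6Chi (median 1.48). In hyperoxia the 5 AM libraries had 29.2, 23.2, 48.5, 30.7 and 12.2, and the 5 Ly6Clo libraries 9.48, 9.09, 85.5, 16.4 and 3.95, with 85.5 in replicate 3. The AM difference was 2.33 ± 0.37 (adjusted p 9.15e-06) in normoxia and 1.82 ± 0.32 (adjusted p 9.67e-05) in hyperoxia. Cox7a2 had 0.81 ± 0.13 (adjusted p 1.23e-05) and 0.96 ± 0.12 (adjusted p 1.23e-06), and Cox7a2l, a supercomplex factor, 0.18 ± 0.09 (adjusted p 0.119) and 0.29 ± 0.11 (adjusted p 0.0379).

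Cox6b2, a form known from testis, was 53.5 to 98.3 CPM in AM normoxia (median 67.4), 62.1, 52.2, 90.0, 43.9 and 68.1 in Ly6Clo, 20.5 to 63.9 in DC (median 28.5) and 23.6 to 41.2 in Ly6Chi (median 31.6). In normoxia all AM and Ly6Clo libraries were above all Ly6Chi libraries. In hyperoxia the groups overlapped, with 71.8, 90.2, 89.4, 73.4 and 36.1 in AM, 63.2, 55.4, 192, 49.2 and 10.1 in Ly6Clo, and 22.5, 31.7, 92.1, 26.1 and 37.3 in Ly6Chi. The AM difference was 0.84 ± 0.20 (adjusted p 0.00123) in normoxia and 0.88 ± 0.30 (adjusted p 0.0236) in hyperoxia, where the call was lost without AM hyperoxia replicate 1, 2 or 4. Its partner Cox6b1 had 0.67 ± 0.12 and 0.82 ± 0.11. Among the forms without such partners here, Cox4i1 had 0.62 ± 0.11 and 0.76 ± 0.10, Cox5a 0.74 ± 0.13 and 0.85 ± 0.13, Cox5b 0.58 ± 0.15 and 0.61 ± 0.15, Cox8a 0.55 ± 0.12 and 0.67 ± 0.12, and Ndufa4 0.73 ± 0.14 and 0.84 ± 0.12. In complex I, Ndufs4 had 0.46 ± 0.11 and 0.53 ± 0.12 and Ndufv3 0.46 ± 0.12 and 0.57 ± 0.11. All of these were called in both conditions.

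**Figure D4:**
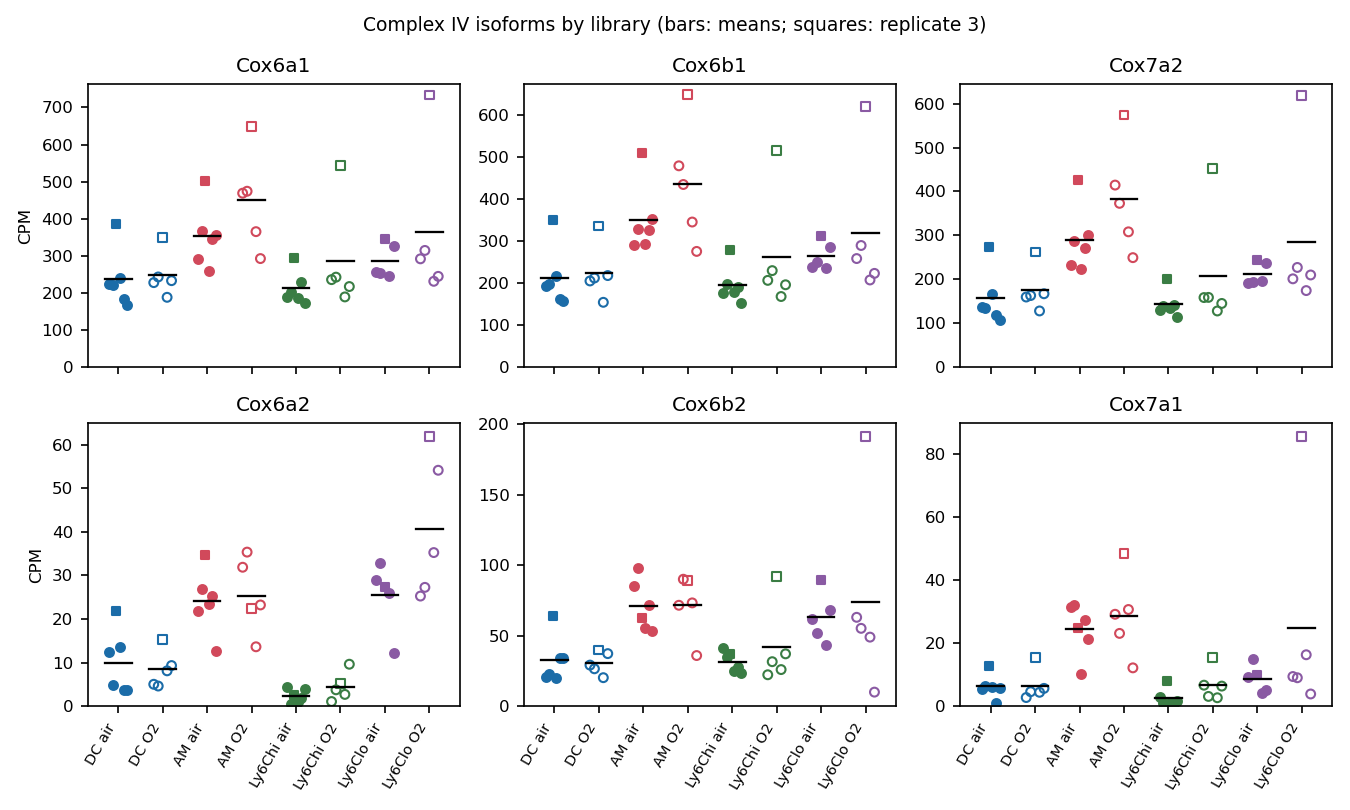
CPM (y axis) of 3 widely expressed complex IV subunits (top) and of the muscle or testis forms Cox6a2, Cox6b2 and Cox7a1 (bottom) in each library of the 8 groups (x axis, air for normoxia, O2 for hyperoxia). Points are libraries, squares are replicate 3 and bars are means. Cox6a2 is lowest in Ly6Chi (0.471 to 9.67 CPM), and replicate 3 is the highest Ly6Clo hyperoxia library in all 6 panels.

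Nuclear respiratory factor 1 (NRF1) and ETS family factors such as GABP are known to bind promoters of many respiratory chain genes. RefSeq promoters (GRCm38.p6) were matched for 52 of the 66 members, and the 250 bases before the start were searched on both strands. An NRF1 consensus motif was found in 9 of 52 (17.3%) against 4.23% of 27025 promoters of the same length, and the ETS motif CCGGAAG in 8 of 52 (15.4%) against 7.83%. Neither a YY1 consensus (0.359% of all) nor TCAAGGTCA, the motif of estrogen-related receptors (0.422%), was found in a member. Cox6a1 held 2 NRF1 matches and 1 ETS match, and Cox7a1 and Cox7a2 held none. They are shown because they are the isoform genes compared above, with motif matches in capitals, written 5′ to 3′ on the strand of the gene. Cox6a1 is at chr5:115348959-115349208 (minus strand), Cox7a2 at chr9:79759854-79760103 (minus strand) and Cox7a1 at chr7:30183921-30184170 (plus strand).
Cox6a1: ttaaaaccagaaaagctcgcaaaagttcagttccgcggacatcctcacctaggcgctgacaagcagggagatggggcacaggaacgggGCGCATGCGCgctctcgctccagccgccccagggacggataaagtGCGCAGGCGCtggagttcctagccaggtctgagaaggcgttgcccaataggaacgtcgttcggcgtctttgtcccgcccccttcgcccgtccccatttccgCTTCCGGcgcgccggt
Cox7a2: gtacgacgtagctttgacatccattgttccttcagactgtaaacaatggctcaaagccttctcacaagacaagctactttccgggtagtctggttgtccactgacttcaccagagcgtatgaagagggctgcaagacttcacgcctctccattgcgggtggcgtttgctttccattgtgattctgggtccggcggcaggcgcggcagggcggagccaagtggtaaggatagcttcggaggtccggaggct
Cox7a1: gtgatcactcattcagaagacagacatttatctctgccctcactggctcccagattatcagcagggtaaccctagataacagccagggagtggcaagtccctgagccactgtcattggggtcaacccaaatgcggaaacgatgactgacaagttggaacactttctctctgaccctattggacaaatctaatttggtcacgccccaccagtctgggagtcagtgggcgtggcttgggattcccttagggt
A match is a description of the letters and not of binding. Esrra, which encodes an estrogen-related receptor, was higher in AM by 1.26 ± 0.27 in normoxia (adjusted p 4.51e-04), and Nrf1 was lower (−0.63 ± 0.15, adjusted p 8.86e-04).

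Hyperoxia against normoxia was fitted within each population. No member was called in any of the 4 (edgeR quasi-likelihood test), where 0% of genes were called in DC, Ly6Chi and Ly6Clo and 0.11% in AM. DESeq2 called 0 members in each, against 0.213% of all genes in DC, 1.11% in AM, 0.0461% in Ly6Chi and 0.00982% in Ly6Clo. At an unadjusted p under 0.05 there were 5 of 66 members in DC, 8 of 66 in AM, 17 of 64 in Ly6Chi and 4 of 66 in Ly6Clo, against 8.85%, 9.91%, 5.45% and 5.3% of all genes. Without the replicate 3 libraries of litter 100 the members' counts were 5, 0, 0 and 0. The share of all genes at that threshold was not counted in those fits. A fit of all 43 libraries found 0 members whose hyperoxia effect differed between populations, against 0% of all genes. At an unadjusted p under 0.05 there were also 0 members, against 4.92% of 12529 genes. DESeq2 called 0 members as well, against 0.168% of all genes. In sorted bulk RNA a lower number of cells of a kind and less RNA per cell cannot be told apart.

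Most members lay on the positive side all the same. The log2 fold change was above 0 for 63 of 66 members in DC (median 0.18), 57 of 66 in AM (0.29), 57 of 64 in Ly6Chi (0.40) and 52 of 66 in Ly6Clo (0.35), while the medians of all genes were 0.00, −0.01, −0.01 and −0.01. Complex II differed in value, with medians of 0.13, 0.03, −0.01 and −0.13. In complexes I, III and IV the medians were 0.18, 0.15 and 0.17 in DC, 0.27, 0.32 and 0.30 in AM, 0.40, 0.37 and 0.42 in Ly6Chi, and 0.35, 0.40 and 0.37 in Ly6Clo. No test was made of these medians. Short genes as a whole also had positive medians. All genes under 1000 bp had 0.14 in DC, 0.13 in AM, 0.29 in Ly6Chi and 0.18 in Ly6Clo. The members under 1000 bp had 0.17, 0.35, 0.41 and 0.42, and those of 2000 bp or more 0.18, 0.06, 0.24 and −0.01. The part of transcript length in the hyperoxia values was not tested.

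The values in Ly6Chi and Ly6Clo moved with replicate 3 of the hyperoxic groups, the only hyperoxic library of litter 100. Without it the median was 0.08 in Ly6Chi and −0.01 in Ly6Clo, and 0.18 in AM. Without AM normoxia replicate 4 the AM median was 0.19, and without DC hyperoxia replicate 5 the DC median was 0.10. Without Ly6Chi normoxia replicate 4 the Ly6Chi median was 0.26, and without Ly6Clo normoxia replicate 4 or 5 that of Ly6Clo was 0.20 or 0.60. Between 1000000 and 1900000 counts the Ly6Chi median was 1.24. In that range only litter 100 held Ly6Chi libraries of both conditions, so with the litter term this value rests on hyperoxic replicate 3. AM went to −0.05 without libraries under 1000000 counts, with 18 of 66 members above 0. This left 2 hyperoxic AM libraries, both of litter 108, so depth and litter changed together. With depth as a covariate the medians were 0.11 in DC, 0.06 in AM, 0.08 in Ly6Chi and 0.08 in Ly6Clo.

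**Figure D5:**
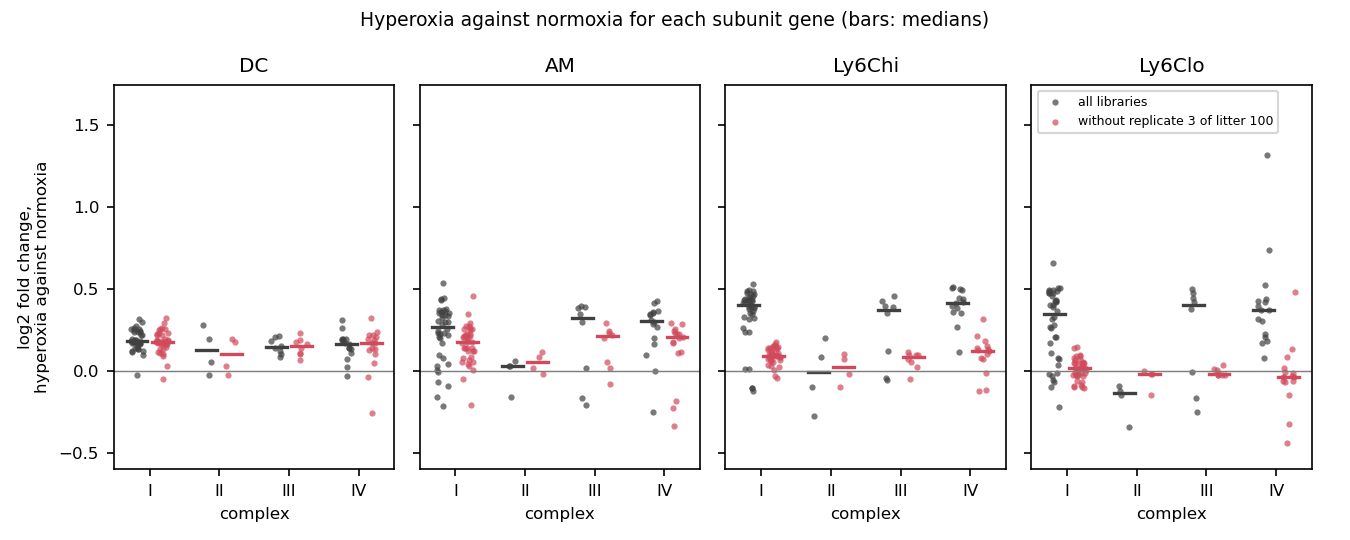
Log2 fold change of hyperoxia against normoxia (y axis) for each subunit gene by complex (x axis) in the 4 populations, with all libraries (grey) and without the replicate 3 libraries of litter 100 (red). Bars are medians. In Ly6Clo the median of all members goes from 0.35 to −0.01, in Ly6Chi from 0.40 to 0.10, and in DC it stays at 0.18 and 0.17.

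The members with the smallest p of each complex show this by library. Cox7a2 was the complex IV member of smallest p in DC, AM and Ly6Chi. Its CPM was 107 to 273 in DC normoxia (median 137) and 160, 164, 262, 128 and 168 in DC hyperoxia, 225 to 425 in AM normoxia (median 280) and 415, 373, 574, 308 and 250 in AM hyperoxia, and 115 to 201 in Ly6Chi normoxia (median 138) and 159, 159, 452, 128 and 146 in Ly6Chi hyperoxia. The groups overlapped in all 3 populations. Its log2 fold changes were 0.31 ± 0.13 (adjusted p 0.546), 0.43 ± 0.17 (0.398) and 0.50 ± 0.20 (0.758). Its counts in AM, 257 to 406 in normoxia and 306 to 408 in hyperoxia, were closer than these CPM, since the AM hyperoxia libraries were shallower.

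For the other complexes the values of smallest p were Ndufa9 in DC (0.28 ± 0.10, adjusted p 0.482), Ndufa7 in AM (0.43 ± 0.16, 0.324), Ndufb8 in Ly6Chi (0.39 ± 0.16, 0.758) and Ndufc1 in Ly6Clo (0.66 ± 0.27, 0.860) for complex I. For complex II they were Sdhb in DC (0.28 ± 0.10, adjusted p 0.491), Sdhc in AM (−0.16 ± 0.21, 0.840), Sdha in Ly6Chi (−0.28 ± 0.14, 0.758) and Sdhd in Ly6Clo (−0.34 ± 0.21, 0.860). For complex III they were Uqcrfs1 in DC (0.18 ± 0.09, adjusted p 0.587), Uqcr10 in AM (0.39 ± 0.17, 0.470) and Ly6Clo (0.50 ± 0.26, 0.860), and Uqcrq in Ly6Chi (0.46 ± 0.20, 0.758). In Ly6Clo, Cox6a2 had 0.74 ± 0.34 (adjusted p 0.860). None passed. In simulated data for AM, with 9986 genes, the same fit recovered 16.4% of genes changed 1.5-fold, 55.2% of those changed 2-fold and 93.9% of those changed 4-fold. The simulated counts were in proportion to library totals, with no litter effect, whereas the members had a median depth slope of 0.21. These rates may therefore not hold for the members. The other 3 populations were not simulated for hyperoxia.

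Neighbouring parts of the same machinery were counted from lists, to be read against the 50.6% of all genes called in AM normoxia (23.6% higher, 26.9% lower) and the 44% in hyperoxia (22.2% higher, 21.8% lower). In normoxic AM 9 of 14 ATP synthase subunits were higher and none lower (median 0.50), and 7 of 7 measured mitochondrially encoded subunits were higher (median 0.57), led by mt-Nd6 (1.08 ± 0.17, adjusted p 1.03e-05). Counts of mt-Nd1 ranged from 771 to 1430 across all libraries, again less than the totals, and 4 mitochondrial genes, mt-Co2, mt-Atp6, mt-Atp8 and mt-Nd4l, had no count in any of the 43. Of assembly factors, 4 of 15 for complex I were higher and 3 lower, with Ndufaf2 (1.105 ± 0.17) and Ndufaf7 (−1.88 ± 0.30) at either side, and 11 of 26 for complexes II to IV were higher and 3 lower. Enzymes of the tricarboxylic acid cycle, which feed the chain, had 1 of 13 higher and 3 lower (median 0.05). Glycolysis went the other way, with 10 of 18 lower and 1 higher (median −0.53), among them Hk1 (−1.98 ± 0.29) and Pkm (−0.82 ± 0.11).

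In electron carriers and coenzyme Q synthesis 4 of 16 were higher and 4 lower in normoxic AM, and the electron transfer flavoprotein Etfb had 0.79 ± 0.11. Of genes for superoxide and peroxide defence, 4 of 9 were higher and 1 lower, among them Sod2, the matrix superoxide dismutase (0.52 ± 0.09, adjusted p 4.98e-05). Regulators of mitochondrial biogenesis had 4 of 11 higher and 2 lower. In hyperoxic AM the counts were 9 of 14 higher for ATP synthase, 7 of 7 for mitochondrially encoded subunits, and 2 higher and 7 lower of 18 for glycolysis. No gene of the 9 lists was called in any hyperoxia comparison.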

How the data were processed

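RNA of 43 sorted libraries was measured by SMART-Seq v4 amplification and Nextera XT sequencing, per the labels. The table the authors deposited holds whole-number counts per Ensembl gene with no normalization; TopHat, SAMtools, Picard, FastQC and HTSeq 0.4.1, and build NCBIM37, are named per the submitters' processing notes, and the role and order of the tools and the annotation are not given in the sources used here. Symbols and exonic lengths were taken from GENCODE M21 (GRCm38), which matched 32919 of 37991 genes; the rest hold 0.828% of counts. The kits carry no molecular identifiers, so precision rests on counts that are not independent molecules.

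Groups follow the labels, and replicates are numbered in accession order and pair nothing. Genes were filtered with edgeR 4.0.16 filterByExpr (minimum count 10, minimum total 15), scaled with TMM (trimmed mean of M values) and tested with robust quasi-likelihood fits in R 4.3.3, with litter as an additive term. Hyperoxia comparisons used the libraries of 1 population, population comparisons the libraries of 1 oxygen condition, and the interaction all 43. P-values were adjusted by Benjamini and Hochberg over all genes tested, and a gene with adjusted p under 0.05 is called. Differences between groups are log2 fold changes ± SE with a prior count of 0.125. Depth slopes used log2(count + 0.5) with group means removed. The fit was tested on simulated data with counts in proportion to library totals and no litter effect. There 0 calls had the wrong sign. Unchanged genes called were 8 for hyperoxia in AM and 4 for AM in normoxia.

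Named were, by rule, the member of smallest p per complex in each hyperoxia comparison, the called member with the largest change per complex and direction in each population comparison, Sdha to Sdhd, isoform sets, and the highest and lowest levels per kb. Ndufs1, Uqcrc1, Uqcrc2 and the other members were named after their values were seen. Alternatives were DESeq2 1.42.0, its size factors, limma 3.58.1 voom, no low-count filter, a correction for a limit of 2 counts per exonic base, depth as a covariate, depth ranges, no litter term, and leaving out litters or single libraries. Depth slopes, all alternatives to the members' medians, limma voom, the 1000000 to 1900000 range, and the removal of replicate 3 or of the pseudogenes were chosen after seeing the data. Results for 1 member are not reported here by name, though it is in all counts and medians. The members and lists were chosen with earlier results of these data known.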

Additional observations from a re-analysis of the deposited data

Results flagged for a closer look

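Single libraries stood apart from the rest of their group by Dixon's criterion, which chance alone meets in about 1 in 20 groups. It was met in 5 of 8 groups for the members' share of counts and in 26 of 88 for the CPM of 11 members. In each case the library was replicate 3 of litter 100. The shares were 1.94% in AM normoxia, 1.67% in DC normoxia, 1.41% in Ly6Chi normoxia, 2.03% in Ly6Chi hyperoxia and 2.22% in Ly6Clo hyperoxia, each the highest of its group.

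Accessory subunits were high there. Ndufa5 was at 326 CPM in AM normoxia, 192 in DC normoxia, 183 in DC hyperoxia, 135 in Ly6Chi normoxia, 282 in Ly6Chi hyperoxia and 462 in Ly6Clo hyperoxia. Uqcrq was at 577 in AM normoxia, 335 in DC normoxia, 244 in Ly6Chi normoxia, 510 in Ly6Chi hyperoxia and 760 in Ly6Clo hyperoxia. Cox7a2 was at 273 in DC normoxia, 201 in Ly6Chi normoxia, 452 in Ly6Chi hyperoxia and 618 in Ly6Clo hyperoxia. Cox7a1 was at 15.4 in DC hyperoxia, 8.19 in Ly6Chi normoxia and 85.5 in Ly6Clo hyperoxia, Cox6b2 at 63.9 in DC normoxia and 92.1 in Ly6Chi hyperoxia, and Cox7c at 34.6 in DC hyperoxia and 42.8 in Ly6Clo hyperoxia.

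Sdhc and Uqcrc1 were low in the same replicate. Sdhc was at 103 CPM in AM normoxia and 122 in DC hyperoxia, and Uqcrc1 at 387 in DC normoxia and 420 in Ly6Chi hyperoxia, each the lowest of its group.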

How the results depend on the processing

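All hyperoxia comparisons and the interaction kept 0 called members under every alternative run. The members' hyperoxia median in AM was −0.046 without libraries under 1000000 counts, and −0.046 in the range of 1000000 to 1900000 counts, which holds the same AM libraries. The 2 hyperoxic ones are both of litter 108. In the range of 1000000 to 1900000 counts the median was 1.24 in Ly6Chi, resting on hyperoxic replicate 3 as above, and 0.031 in Ly6Clo. In Ly6Clo it was −0.011 without libraries under 1000000 counts, −0.012 without replicate 3 of every group and −0.000155 without litter 100, and single omissions gave −0.011 (replicate 3 of Ly6Clo hyperoxia) to 0.60.

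Counts of called members in the population comparisons are given as normoxia and hyperoxia. With log2 total as a covariate they were 8 and 1 in DC, 13 and 1 in AM, and 4 and 2 in Ly6Chi, and medians moved to 0.17 and 0.14 in AM and −0.011 in normoxic Ly6Chi. No replicate block in the form of litter gave 7 and 0 in DC, 17 in hyperoxic AM and 1 in hyperoxic Ly6Chi. Between 1000000 and 1900000 counts they were 0 and 20 in DC, 32 and 1 in AM, and 12 and 2 in Ly6Chi. In hyperoxia that range ties AM to the other populations through Ly6Clo replicate 5 alone, as above. Without litter 93 the counts were 1 and 1 in DC, 24 in hyperoxic AM, 12 and 1 in Ly6Chi, and 0 in normoxic Ly6Clo. Without litter 108 they were 1 in normoxic DC, 21 and 4 in Ly6Chi, and 2 in hyperoxic Ly6Clo. Without litter 100 they were 52 in normoxic DC and 44 in hyperoxic Ly6Chi, and without replicate 3 they were 47, 44 and 2 (normoxic Ly6Clo). Hyperoxic Ly6Chi had 14 without libraries under 1000000 counts, and normoxic Ly6Clo had 2 with limma voom or without the low-count filter. Single omissions gave 5 to 43 in normoxic DC, 10 to 27 in hyperoxic Ly6Chi, 1 to 2 in Ly6Clo in either condition and 50 to 55 in normoxic AM. Shares of all genes called are not given for these single omissions. Of all genes, the fits without the litter term called 29.8% and 19.1% in DC, 31.7% in hyperoxic AM and 26.2% in hyperoxic Ly6Chi. The depth range called 23.7% and 7.96% in DC, 40.5% and 1.97% in AM, and 26% and 14.1% in Ly6Chi. Leaving out litter 93 called 21.4% and 12.3% in DC, 19.8% in hyperoxic AM, 30.1% and 17.1% in Ly6Chi, and 7.18% in normoxic Ly6Clo. Leaving out litter 108 called 23.5% of all genes in normoxic DC, 29.8% and 26.6% in Ly6Chi, and 6.88% in hyperoxic Ly6Clo. Leaving out litter 100 called 35.8% in normoxic DC and 39.4% in hyperoxic Ly6Chi, and leaving out replicate 3 called 36.7% and 39.4%. The cause of these changes was not tested.

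With the depth covariate the hyperoxic AM differences of Cox5b, Cox6b2 and Ndufv1 changed sign, to −0.18, −0.64 and 0.062, none of them called. Among 2280 alternative values of 66 named population results, 189 lost the call, 30 gained it, 3 changed sign as above and 42 values uncalled in both fits changed sign. No paired analysis was possible because the labels carry no replicate numbers. Cox6a2 had 1 to 96 counts per library, which limits its precision.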
